A study of Mus musculus with 4 samples.

Results

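The genes described here are 40 genes of mitosis and cytokinesis, read from Affymetrix expression arrays of distal colon, 1 array for each of 4 mice. Their members were fixed by symbol and chosen with earlier results of these data known. Each gene was read from the probe set (a group of short probes for 1 transcript) with the highest mean over the 4 arrays. Only probe sets annotated to that gene alone were used. This found 39 of the 40, out of 18193 genes with such a probe set. Ccnb1 (cyclin B1) was not matched to a probe set and was not analysed here. All 39 passed the filter used for the comparisons, which kept 12189 genes that lay above an array's median on at least 1 array.

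The study used mice wild type for Adamts12 (WT) and mice deficient in it (KO), the gene of an extracellular ADAMTS protease. In each genotype 1 mouse was untreated and 1 received 2% dextran sodium sulfate (DSS) in its drinking water, which damages the lining of the colon and brings on colitis. The labels give 7 days of DSS in the series text and 8 days in the treatment protocol, each with 1 further day without it, and an age of 8 to 10 weeks at the start. They name neither the strain nor the part of Adamts12 that was removed. Each of the 4 groups (untreated WT, WT with DSS, untreated KO, KO with DSS) is 1 array, so their number limits the precision, and no difference between a pair of arrays has a replicate check.

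A cell that enters mitosis condenses its chromosomes, builds a bipolar spindle, attaches each chromosome through its kinetochores, waits at a checkpoint until all are attached, and then splits in cytokinesis. Most of the proteins are made anew in each cycle: their genes are repressed in resting cells and transcribed in G2 and M phase, so their transcripts are widely used as marks of cycling cells. In the colon, cycling cells lie mainly in the lower crypt, and after epithelial injury the crypts that survive proliferate to cover the wound. Immune and stromal cells that divide express the same genes.

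Some facts of the whole series touch these results. The brighter Adamts12 probe set read 2.18 on both WT arrays and 1.42 and 1.41 on the untreated and DSS KO arrays (log2), in the direction of the labels, but both of its probe sets were dim. Epithelial markers were bright on all 4 arrays, with Epcam between 10.98 and 11.51 and Krt20 between 10.51 and 10.60. The arrays also differed in genes of position along the gut. Of 6 distal markers, 4 were at least 2-fold lower with DSS in WT and 5 were 2-fold lower in untreated KO than in untreated WT. Hoxd13, a posterior Hox gene, read 8.82 and 4.22 on the untreated and DSS WT arrays and 3.36 and 7.20 on the KO arrays, and Hoxb13 read 9.47, 7.84, 2.48 and 8.40. All 6 proximal markers were at least 2-fold higher in untreated KO than in untreated WT. Both the WT and the KO comparison are thus crossed by position markers, and their part in the results was not tested.

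With DSS all 39 mitosis genes were higher in WT and in KO alike, and for each of them both DSS arrays lay above both untreated arrays. Over all genes kept, 30.3% were higher in both genotypes and 26.4% had both DSS arrays above both untreated ones. The median log2 difference was 1.34 in WT (2.53-fold) and 1.28 in KO (2.43-fold), beside -0.01 and 0.06 over all genes kept. At least 2-fold higher were 33 of 39 in WT, where the share of all genes was 5.82%, and 29 of 39 in KO, where it was 10.8%. In both genotypes 27 of 39 reached 2-fold, against 2.48% of all genes, and 0 members were 2-fold lower in either, where 4.96% of all genes were in WT and 6.68% in KO. In tissue arrays, fewer cells of a type and less RNA per cell cannot be told apart.

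**Figure D1:**
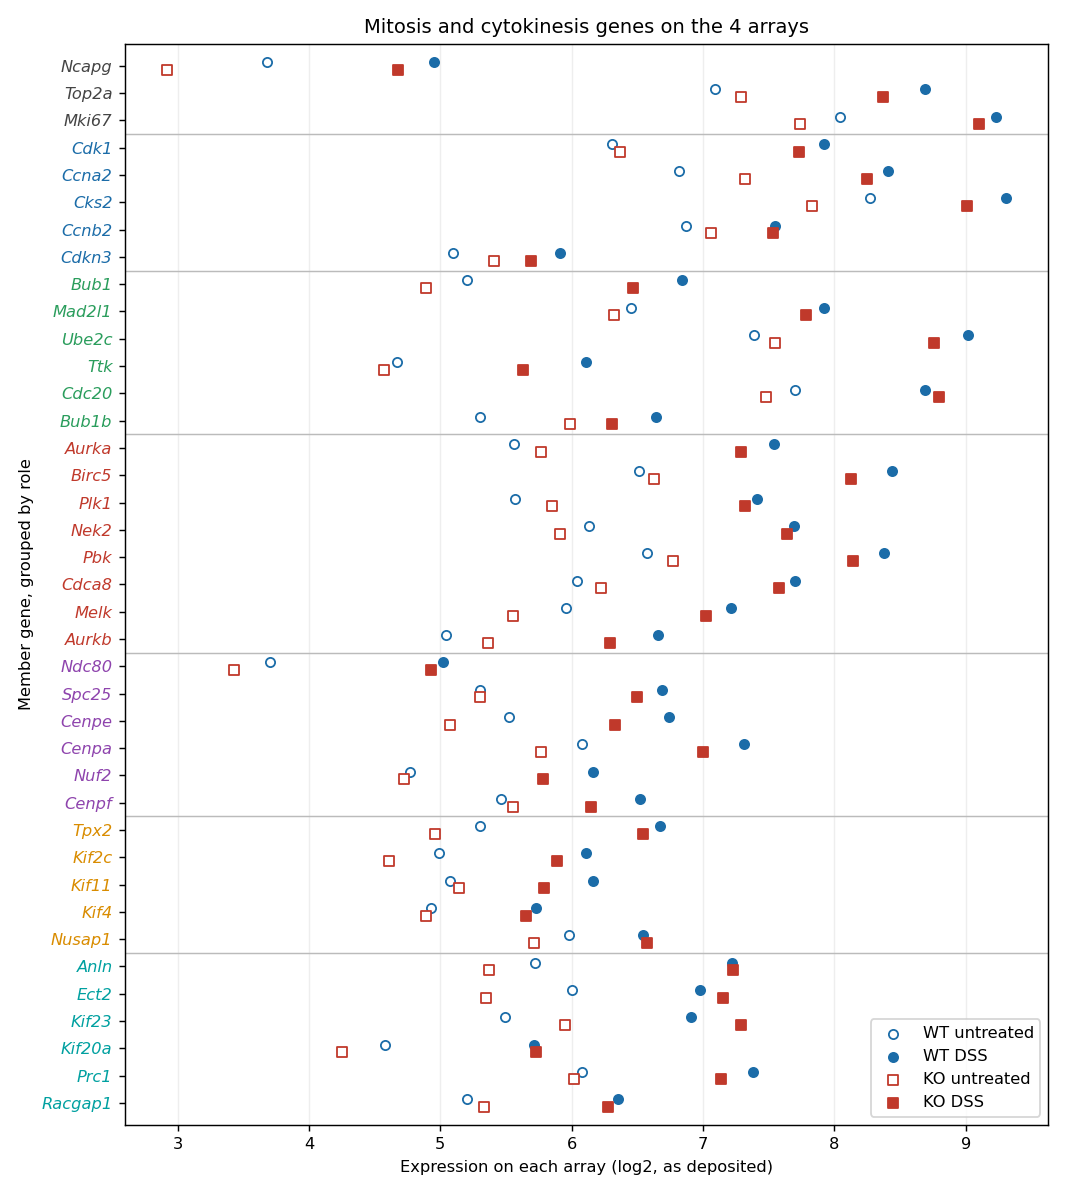
Log2 value as deposited (x axis) of each of the 39 members (y axis, grouped and coloured by role) on the 4 arrays; open symbols are untreated, filled symbols DSS, circles WT and squares KO, 1 array each with no error. For each gene both filled symbols lie to the right of both open ones.

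The DSS effect was tested over the 4 arrays with limma's moderated test, fitted to all 12189 genes with genotype as covariate. In that fit 0 of the 39 members passed at a Benjamini-Hochberg adjusted p under 0.05, nor did any other gene (0% of all genes), and the members' adjusted p lay between 0.364 and 0.524. At an unadjusted p under 0.05 stood 36 of the 39, all higher, while 11.8% of all genes stood there in either direction and 7.64% as higher. The 3 members outside were Bub1b, Ccnb2 and Cdkn3. The fit has 1 residual degree of freedom. A gene's own error is how far its DSS difference departs between the genotypes, not a spread between mice. The moderated test combines it with error borrowed from all genes, weighted as 2.68 degrees of freedom (median).

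The range of the response was narrow. DSS differences ran from 0.56 (Nusap1) to 1.98 (Aurka) in WT and from 0.28 (Cdkn3) to 1.86 (Anln) in KO. The members nearest the 2-fold line in WT were Cks2 at 1.04 inside it and Cdc20 and Ect2 at 0.99 and 0.98 outside it. In KO they were Ttk and Nuf2, both at 1.06, inside and Racgap1 at 0.95 outside. Across the 39 members, the differences in WT and in KO, which share no array, correlated at r = 0.465 (Spearman's rho = 0.411). Over all genes kept the values were 0.255 and 0.266. These correlations are across genes, which share the 4 arrays and are no independent replicates.

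**Figure D2:**
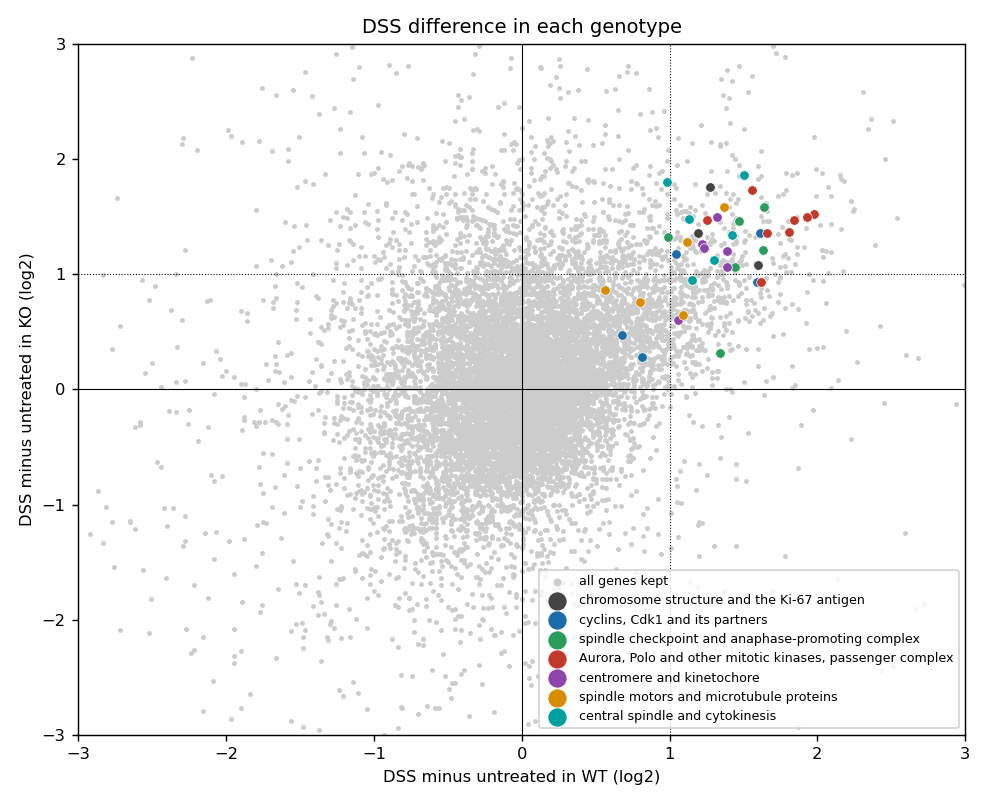
DSS minus untreated in WT (x axis) and in KO (y axis), both log2; grey points are all genes kept, coloured points the 39 members by role, and dotted lines mark 2-fold higher. All members lie above and to the right of 0, 27 of them past both dotted lines; 163 genes lie outside the axes.

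Since all members were higher with DSS, their promoters are shown. Many genes of G2 and M phase carry a cell cycle genes homology region (CHR), read TTTGAA, to which the MuvB complex binds, together with CCAAT boxes, which bind the factor NF-Y. MuvB joins with pocket proteins and E2F4 to form the repressive DREAM complex in resting cells, and with B-Myb and FoxM1 to activate these genes in cycling cells. RefSeq windows from 250 bases before to 50 after the annotated start (GRCm38.p6) were matched by symbol for 35 of the 40 genes, Ccnb1 included, in 37 windows. Both strands were searched for TTTGAA and for CCAAT, whose letters can share at most an end base.

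TTTGAA stood in 25 of the 35 genes. It was found in 73.0% of their 37 windows, beside 17.9% of all 32851 windows. Within 50 bases of the start the shares were 64.9% and 4.94%. CCAAT stood in 27 of the 35 genes, in 78.4% of their windows and 37.4% of all windows, and both motifs were found in 64.9% and 6.95%. Of 34 TTTGAA matches, counted window by window, 26 were on the strand of the gene and 25 within 50 bases of the start. Sites shared by the overlapping windows of Ect2 and of Prc1 were counted in each window. A match of letters is a description and shows no binding.

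The windows below belong to the members with a TTTGAA match that had the 4 highest mean DSS differences among such genes (Aurka, Anln, Plk1 and Ncapg) and the lowest (Ccnb2 and Cdkn3), so that strong and weak responders can be compared. Each is 300 bases, 5′ to 3′ on the gene's strand, from RefSeq, GRCm38.p6. Capitals mark TTTGAA or its reverse complement TTCAAA and CCAAT or its reverse complement ATTGG.
Aurka, chr2:172370521-172370820, minus strand: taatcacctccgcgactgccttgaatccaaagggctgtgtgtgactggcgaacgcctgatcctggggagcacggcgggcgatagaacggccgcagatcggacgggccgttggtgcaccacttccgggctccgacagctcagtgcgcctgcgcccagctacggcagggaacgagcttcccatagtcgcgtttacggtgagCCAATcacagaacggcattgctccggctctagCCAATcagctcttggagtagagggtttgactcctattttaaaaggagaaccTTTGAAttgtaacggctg
Anln, chr9:22389157-22389456, minus strand: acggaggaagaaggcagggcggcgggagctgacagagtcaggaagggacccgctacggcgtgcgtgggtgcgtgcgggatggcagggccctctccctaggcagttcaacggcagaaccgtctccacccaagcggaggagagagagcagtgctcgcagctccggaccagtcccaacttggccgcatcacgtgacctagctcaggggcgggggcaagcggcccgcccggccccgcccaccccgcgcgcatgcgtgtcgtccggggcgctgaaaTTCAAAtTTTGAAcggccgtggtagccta
Plk1, chr7:122159185-122159484, plus strand: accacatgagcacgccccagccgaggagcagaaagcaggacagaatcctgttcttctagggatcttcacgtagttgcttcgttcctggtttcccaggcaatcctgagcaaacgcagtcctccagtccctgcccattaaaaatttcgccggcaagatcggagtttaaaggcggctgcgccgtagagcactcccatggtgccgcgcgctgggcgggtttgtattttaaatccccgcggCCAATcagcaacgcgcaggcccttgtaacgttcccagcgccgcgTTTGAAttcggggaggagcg
Ncapg, chr5:45669675-45669974, plus strand: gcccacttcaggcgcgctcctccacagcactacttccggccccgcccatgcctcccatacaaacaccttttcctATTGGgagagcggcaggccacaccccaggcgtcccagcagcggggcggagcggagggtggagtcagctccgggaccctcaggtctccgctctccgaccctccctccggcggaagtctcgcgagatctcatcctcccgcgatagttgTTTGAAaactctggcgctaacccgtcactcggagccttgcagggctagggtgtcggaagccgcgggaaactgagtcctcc
Ccnb2, chr9:70421505-70421804, minus strand: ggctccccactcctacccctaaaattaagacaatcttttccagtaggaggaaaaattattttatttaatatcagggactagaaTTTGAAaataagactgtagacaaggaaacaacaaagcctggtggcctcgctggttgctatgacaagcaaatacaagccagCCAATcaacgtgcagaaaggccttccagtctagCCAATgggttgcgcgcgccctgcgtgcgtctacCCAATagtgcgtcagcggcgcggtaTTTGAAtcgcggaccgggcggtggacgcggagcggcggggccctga
Cdkn3, chr14:46760291-46760590, plus strand: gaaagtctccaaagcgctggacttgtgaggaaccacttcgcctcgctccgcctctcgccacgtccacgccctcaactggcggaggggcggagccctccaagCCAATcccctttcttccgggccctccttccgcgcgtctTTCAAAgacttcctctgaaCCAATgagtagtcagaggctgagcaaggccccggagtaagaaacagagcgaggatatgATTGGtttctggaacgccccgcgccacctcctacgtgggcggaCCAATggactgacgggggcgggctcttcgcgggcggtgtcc

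These windows were picked for a TTTGAA match, so its presence in them was fixed in advance. Its first base lay at 33 bases in Aurka, 29 in Anln and 31 in Plk1, counting the start as 1, and at -30 in Ncapg. Birc5, Nek2 and Bub1 had higher mean DSS differences than Ncapg (1.715, 1.645 and 1.61 against 1.515) but no TTTGAA in their windows. Anln also had the reverse letters at 22 and no CCAAT in this window. Ccnb2, a weak responder, held TTTGAA at 5 and at -167 with 3 CCAAT boxes upstream, so these letters near the start were found in a weak responder too. Cdkn3 held only the reverse letters, at -111. Over the 34 members with a window and a probe set, the median DSS differences were 1.30 in WT and 1.23 in KO for the 25 with TTTGAA and 1.39 and 1.46 for the 9 without.

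**Figure D3:**
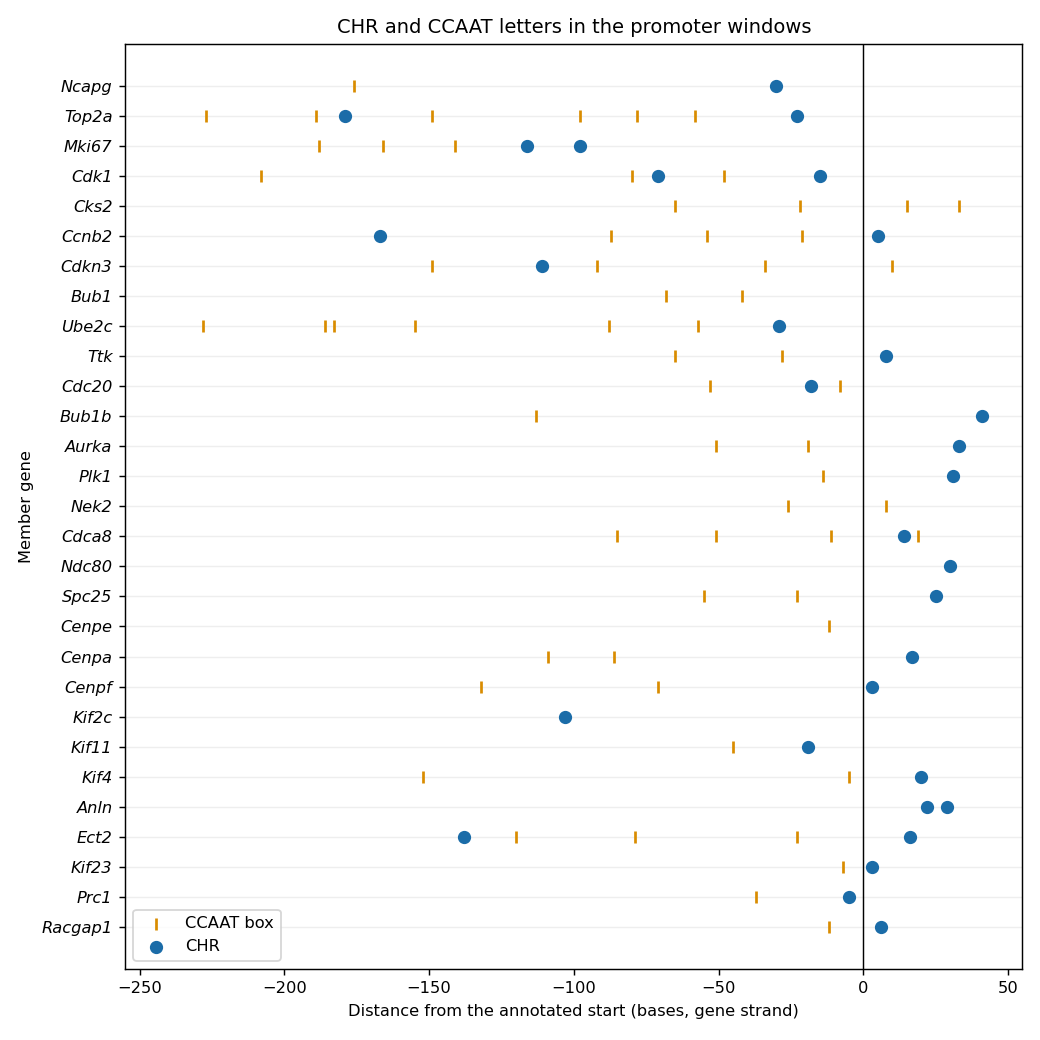
First base of each TTTGAA (CHR, dots) and CCAAT (ticks) match on either strand, as distance in bases from the annotated start (x axis, the vertical line), in the promoter windows of members (y axis, ordered by role; 1 window per gene). Over all windows 25 of 34 TTTGAA matches lie within 50 bases of the start, with sites shared by overlapping windows of a gene counted in each. Members with neither motif are not drawn.

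In the values that follow, the 4 numbers of a gene are its log2 values on the untreated WT, WT DSS, untreated KO and KO DSS arrays, in that order. Levels of different genes come from different probes and are not compared.

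Chromosome structure genes were at least 2-fold higher in both genotypes, 3 of 3, with medians of 1.27 in WT and 1.36 in KO. Mki67, which encodes the Ki-67 antigen that coats mitotic chromosomes and is the standard stain for cycling cells, read 8.04, 9.23, 7.74 and 9.10. Its DSS differences were 1.19 in WT and 1.36 in KO (limma estimate 1.27, SE 0.23). Top2a, the topoisomerase that untangles sister chromatids, read 7.09, 8.69, 7.29 and 8.37. A second kept probe set of Top2a was higher by 1.79 and 1.46, where the first was higher by 1.60 and 1.08. Ncapg, a subunit of the condensin that compacts chromosomes, read 3.68, 4.95, 2.92 and 4.68. It had the lowest untreated KO value relative to WT of all members, which gives it the larger DSS difference in KO (1.76 against 1.27). On its second probe set the order was turned, with 1.58 in WT and 0.73 in KO.

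Among the cyclins, Cdk1 and its partners, 5 of 6 were measured, with medians of 1.04 in WT and 0.93 in KO, and 3 and 2 of them were at least 2-fold higher. Cdk1, the kinase that drives entry into mitosis, read 6.31, 7.92, 6.37 and 7.73, higher by 1.61 in WT and 1.36 in KO. Cyclin A2 (Ccna2), its partner in S and G2 phase, read 6.82, 8.41, 7.32 and 8.25, and the difference in KO, 0.93, fell short of 2-fold from a higher untreated value. On its second probe set, which was nearly level between the untreated arrays, the differences were 1.37 and 1.26. Cks2, a small subunit that binds Cdk1, read 8.27, 9.31, 7.83 and 9.01.

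Ccnb2 and Cdkn3 were among the weakest of the 39. Cyclin B2 (Ccnb2), which pairs with Cdk1 in mitosis, read 6.87, 7.55, 7.06 and 7.53, a difference of 0.68 in WT and 0.47 in KO. Cdkn3, a phosphatase that removes the activating phosphate from Cdk kinases, read 5.10, 5.91, 5.41 and 5.69, with 0.81 and 0.28. Both genes still had their DSS arrays above their untreated ones, but neither reached 2-fold in either genotype.

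The spindle checkpoint and anaphase-promoting complex genes were higher by a median of 1.46 in WT and 1.27 in KO, with 5 of 6 at least 2-fold higher in each. Bub1, a checkpoint kinase at the kinetochore, had the smallest unadjusted p of the members and read 5.20, 6.84, 4.89 and 6.47. Its differences were nearly equal, 1.64 in WT and 1.58 in KO (limma estimate 1.61, SE 0.23). Mad2l1, which encodes the checkpoint protein that inhibits Cdc20, read 6.45, 7.92, 6.32 and 7.78, again nearly equal at 1.47 and 1.46. Ttk, the kinase Mps1 that starts checkpoint signalling, read 4.67, 6.11, 4.57 and 5.63. Ttk had the lowest KO value relative to WT among the DSS arrays.

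Bub1b departed most between the genotypes. This gene encodes BubR1, a part of the complex that holds back anaphase, and read 5.30, 6.64, 5.99 and 6.31. The difference was 1.34 in WT and 0.32 in KO, with the untreated KO array 0.69 above the untreated WT array and the KO DSS array 0.33 below the WT one. A second kept probe set read 4.79, 6.29, 5.18 and 5.83, the same order.

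On the probe sets used, the effectors of the anaphase-promoting complex, the ubiquitin ligase that ends mitosis, were higher by more than its core subunits. Cdc20, its activator, read 7.70, 8.69, 7.48 and 8.80, and Ube2c, its ubiquitin-conjugating enzyme, read 7.39, 9.02, 7.55 and 8.76. Other kept probe sets of Cdc20 gave 1.15 and 0.77 in WT and 0.93 and 0.30 in KO. Of 15 genes of the core subunits and the other activator, Fzr1, 0 were at least 2-fold higher in WT and 1 (Anapc15, 1.04) in KO, and 0 were 2-fold lower. Their medians were 0.12 and 0.27, beside 10 housekeeping genes at 0.14 and 0.24.

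The mitotic kinases and the chromosomal passenger complex had the highest medians of the roles, 1.74 in WT and 1.47 in KO, with 8 of 8 at least 2-fold higher in WT and 7 in KO. Aurka, the Aurora kinase of spindle poles, had the highest mean difference of the members and read 5.56, 7.54, 5.77 and 7.29 (limma estimate 1.75, SE 0.26). Birc5, which encodes survivin of the passenger complex, read 6.51, 8.44, 6.63 and 8.13. Plk1, the Polo kinase needed for spindle assembly and cytokinesis, read 5.57, 7.41, 5.85 and 7.32. For these 3 genes the DSS difference was larger in WT (3.81-fold for Birc5, 3.58-fold for Plk1) than in KO (2.83-fold and 2.77-fold).

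The other kinases of this role were high on the same arrays. Nek2, a kinase that separates centrosomes, read 6.13, 7.69, 5.91 and 7.64, with the larger difference in KO (1.73 against 1.56). Pbk, a kinase active in mitosis, read 6.57, 8.38, 6.77 and 8.14. Melk, a kinase of cycling and progenitor cells, read 5.96, 7.21, 5.55 and 7.02. Within the passenger complex, which corrects faulty attachments, borealin (Cdca8) read 6.04, 7.70, 6.22 and 7.58. Its kinase Aurkb read 5.04, 6.66, 5.36 and 6.29, and 0.93 in KO fell short of 2-fold, whereas its second probe set gave 1.20 in WT and 1.09 in KO.

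Centromere and kinetochore genes were higher by 1.06 to 1.39 in WT, and 5 of 6 reached 2-fold in KO. Cenpa, the histone H3 variant that marks the centromere, read 6.08, 7.31, 5.77 and 7.00, a difference of 1.23 in each genotype, whereas its second kept probe set differed by 0.20 and 0.31. Of the Ndc80 complex, which binds spindle microtubules, Ndc80 read 3.70, 5.02, 3.43 and 4.93, Nuf2 read 4.77, 6.16, 4.72 and 5.78, and Spc25 read 5.30, 6.69, 5.30 and 6.50. These 3 subunits were all at least 2-fold higher in both genotypes, by 1.32, 1.39 and 1.39 in WT. Spc24, a further subunit outside the members, was higher by 1.56 in WT and by 0.64 in KO, short of 2-fold. Cenpe, a kinetochore motor, read 5.52, 6.74, 5.07 and 6.33. Cenpf, a large protein of the outer kinetochore, was the exception in KO, reading 5.46, 6.52, 5.55 and 6.15, and on its second kept probe set it differed by 0.24 and -0.03.

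Spindle motors and microtubule proteins had the lowest median in KO, 0.86, with 1.09 in WT. Tpx2, which activates Aurora A on the spindle, read 5.30, 6.67, 4.96 and 6.54 and was at least 2-fold higher in both on this probe set. Other kept probe sets of Tpx2 gave 1.48, 0.69 and 0.23 in WT and 0.97, -0.18 and -0.40 in KO. Kif2c, a kinesin that takes microtubules apart at the centromere, read 4.99, 6.11, 4.61 and 5.89. Its other kept probe sets gave 1.06 and 0.99 in WT but 0.95 and -0.08 in KO. Kif11, the kinesin that pushes the spindle poles apart, read 5.07, 6.16, 5.14 and 5.79, and all 3 of its probe sets were at least 2-fold higher in WT and none in KO. Kif4, a chromosome-bound kinesin, read 4.93, 5.73, 4.89 and 5.65. Nusap1, a protein that bundles spindle microtubules, read 5.98, 6.54, 5.71 and 6.57. Kif4 and Nusap1 stayed under 2-fold in both genotypes, and without the intensity trend limma no longer put Nusap1 under the unadjusted threshold.

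Genes of the central spindle and cytokinesis were higher by a median of 1.23 in WT and 1.41 in KO, with 5 of 6 at least 2-fold higher in each. Anln (anillin), a scaffold of the contractile ring, read 5.72, 7.22, 5.37 and 7.23 and had the largest difference of all members in KO, 1.86. Ect2, the exchange factor that activates RhoA at the cell equator, read 6.0, 6.98, 5.35 and 7.15, with 1.80 in KO and 0.98 in WT. Among members with the larger DSS difference in KO, Ect2 had the widest gap, 0.82, and its untreated KO value was 0.65 below WT. Kif20a, a kinesin of the central spindle, read 4.58, 5.71, 4.25 and 5.73.

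The centralspindlin pair and Prc1 were also higher with DSS in both genotypes. Kif23, the motor of centralspindlin, read 5.49, 6.91, 5.95 and 7.29, higher in KO than in WT both without and with DSS. Its partner Racgap1 read 5.20, 6.35, 5.33 and 6.28. Prc1, which bundles antiparallel microtubules at the midzone, read 6.08, 7.38, 6.02 and 7.14.

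Other probe sets of the members were a check within the same arrays. Of 24 further kept probe sets, for 18 genes, 24 were higher in the WT comparison and 20 in the KO comparison, with medians of 1.17 and 0.94. The 4 not higher in KO belonged to Tpx2 (2 probe sets), Kif2c and Cenpf. Among 15 probe sets under the filter, 15 were higher in WT and 7 in KO, with medians of 0.29 and 0.00. Averaging all probe sets of a gene, dim ones included, left 39 of 39 members higher in both genotypes, with medians of 1.15 and 1.03, and 25 and 21 at least 2-fold higher.

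Without DSS, the KO and WT colons were close in these genes. KO minus WT differences ran from -0.76 (Ncapg) to 0.69 (Bub1b) with a median of -0.05, and 21 of 39 were lower in KO, beside 50.7% of all genes. On the probe sets used, none of the 39 was 2-fold apart, where 9.42% of all genes were. At 1.5-fold there were 3, Bub1b higher and Ect2 and Ncapg lower in KO, beside 25.2% of all genes. The sign of that median depended on the scaling, at 0.045 after quantile normalization. Other kept probe sets did not all give the same picture. The second one of Ncapg was higher in KO by 0.14, and that of Bub1b by 0.39, short of 1.5-fold. The second one of Cenpe was 2-fold lower in KO, at 2.86 in untreated WT and 1.86 in untreated KO. Kept ones of Tpx2 (0.86), Kif2c (0.83) and Cenpa (-0.74) passed 1.5-fold. Of the 24 further kept probe sets, 11 were lower in KO without DSS.

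With DSS, the genotype differences spanned a narrower range, but their median lay further below 0. KO minus WT differences ran from -0.48 (Ttk) to 0.38 (Kif23), and 0 of 39 were 1.5-fold apart, where 14.4% of all genes were, or 2-fold apart, where 5.42% were. The median was -0.19, so the KO value was 0.877 of the WT value, and 33 of 39 were lower in KO, beside 52.6% of all genes. The 6 higher in KO were Anln, Cdc20, Ect2, Kif20a, Kif23 and Nusap1. Of the 6 cytokinesis genes, 4 were higher in KO, with a median of 0.015, and of the other 33 members 2 were, with a median of -0.22; this difference between roles was not tested. On the further kept probe sets, 23 of 24 were lower in KO with DSS, and Cdc20 was lower in KO on both of its others.

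**Figure D4:**
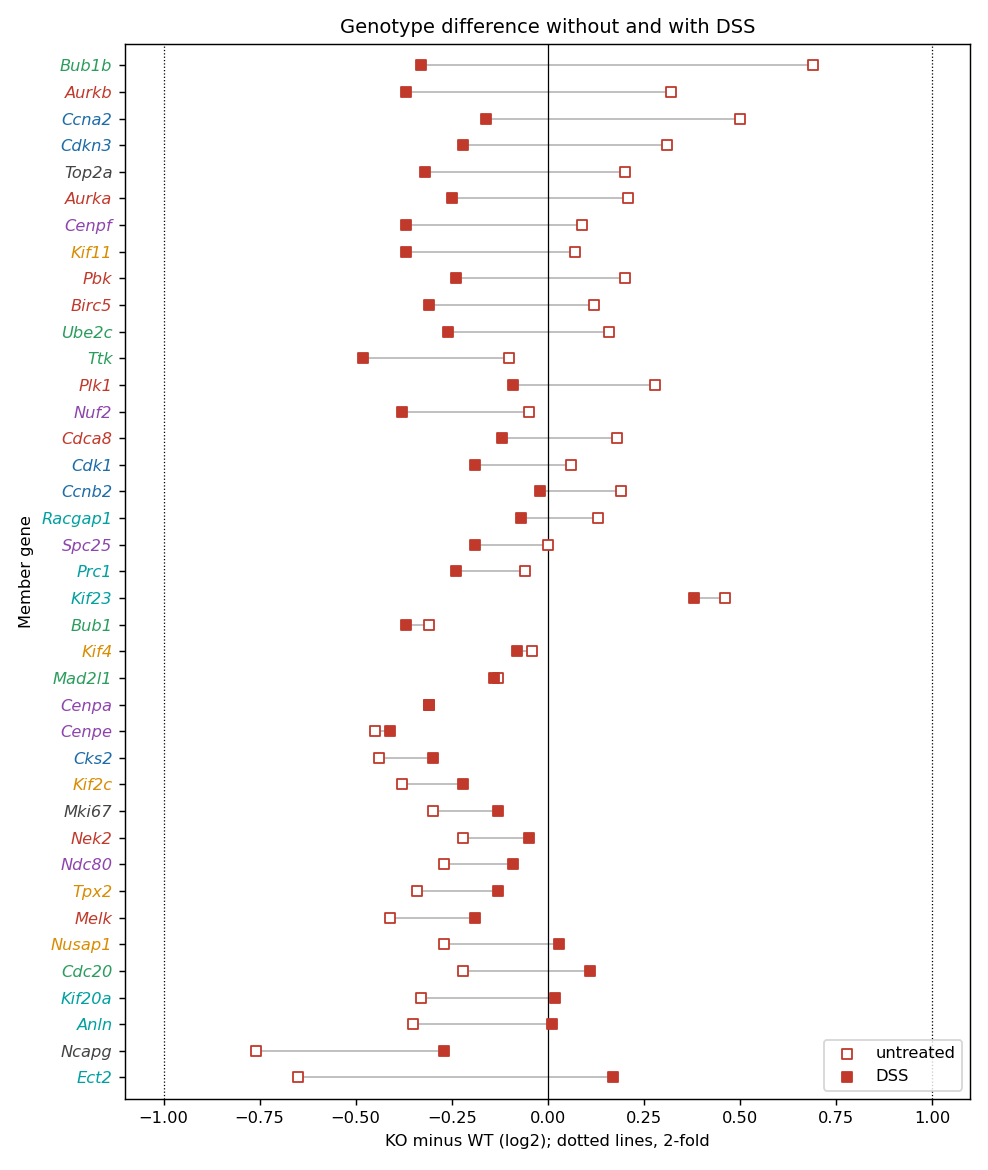
KO minus WT (x axis, log2) for each of the 39 members (y axis, coloured by role as in the plot of values by array) without DSS (open squares) and with DSS (filled squares), 1 array each; dotted lines mark 2-fold. No square passes a dotted line, and 33 filled squares lie left of 0.

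Tested over the 4 arrays with treatment as covariate, the genotype difference gave 0 of 39 members at an adjusted p under 0.05 in limma (0% of all genes) and 0 at an unadjusted p under 0.05, where 1.44% of all genes stood in either direction and 0.665% as higher in KO. In the same data 24 of 39 members had the larger DSS difference in WT, beside 49.4% of all genes, and the median difference of the effect, KO minus WT, was -0.18. That difference has no error of its own in this design. Taken against the untreated WT array in place of the untreated KO array, the KO DSS array had 28 of 39 members at least 2-fold higher (6.14% of all genes) and a median difference of 1.15.

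Other genes of mitosis were examined from a list of 72. Of the 70 measured, DSS gave a value at least 2-fold higher for 33 in WT, 25 in KO and 19 in both, and 0 were 2-fold lower, with medians of 0.97 and 0.82. In limma's DSS test 42 of them stood at an unadjusted p under 0.05, all higher. The highest were Trip13, a partner of the checkpoint protein Mad2 (5.12, 7.10, 4.92 and 7.11), Cep55, which directs the final cut between daughter cells (5.90, 7.52, 5.62 and 7.69), and Cks1b, the close relative of Cks2 (7.82, 9.29, 7.41 and 9.26).

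At the other end stood Pttg1, which encodes securin, the inhibitor of the enzyme that parts the sister chromatids. It read 9.52, 9.33, 9.85 and 9.15, differences of -0.19 and -0.70. All 3 of its probe sets were lower with DSS in both genotypes, by -0.12 to -0.24 in WT and -0.48 to -0.70 in KO. The next lowest were Cit, a kinase of cytokinesis (0.20 and -0.72), and Wee1, the kinase that restrains Cdk1 (0.02 and -0.52). The 2 other kept probe sets of Cit were higher in both (0.80 and 0.15, 0.51 and 0.07). Another kept probe set of Wee1 differed by 0.46 in WT and -0.65 in KO.

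Of 16 genes for transcription factors of the G2 and M phase programme and the DREAM complex, 2 were at least 2-fold higher in WT (Mybl2 and Tfdp1) and 3 in KO (Mybl2, Lin9 and Lin54), and 0 were 2-fold lower; the Lin9 probe set did not pass the filter on dim values. Mybl2, which encodes B-Myb, read 3.04, 5.10, 3.90 and 5.10. For Foxm1 the probe sets disagreed: the brightest read 5.51, 5.47, 5.55 and 5.28, whereas another kept one read 4.08, 5.69, 4.78 and 5.46, differences of 1.61 and 0.68. Rbl2, the pocket protein p130 of the DREAM complex, differed by -0.53 in WT and 0.19 in KO.

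Genes of the earlier cycle phases were higher as well. Of 15 E2F factors and G1 to S cyclins and kinases, 6 were at least 2-fold higher in WT and 3 in KO (E2f7, Ccnd1 and Ccne2), with medians of 0.98 and 0.54. Ccnd1, cyclin D1, read 6.94, 8.97, 7.57 and 8.78. Of 38 DNA replication genes measured, 32 were 2-fold higher in WT and 19 in KO, with medians of 1.44 and 0.99, beside 1.34 and 1.28 for the mitosis genes, a difference that was not tested. TTTGAA stood in 5 of 31 replication genes with a window and in 33 of 59 mitosis genes outside the members.

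The values of genes that restrain proliferation depended on the untreated array used. Of 16 Cdk inhibitors and related brakes, 6 were at least 2-fold lower with DSS in WT, with a median of -0.80, and 1 higher (Gadd45g) and 1 lower (Cdkn2b) in KO, with a median of 0.13. With untreated WT as the baseline instead, 12 of the 16 were lower on the KO DSS array, 2 of them at least 2-fold (Cdkn1c and Cdkn2b), with a median of -0.44. Cdkn2b, the Cdk4 inhibitor p15, was 2-fold lower in both, reading 6.37, 5.10, 6.92 and 4.85. Trp53inp1 read 9.31, 7.28, 8.27 and 8.39, and Gadd45g read 6.44, 5.40, 4.49 and 6.10. Cdkn1a, the inhibitor p21, differed by -0.34 and -0.44.

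**Figure D5:**
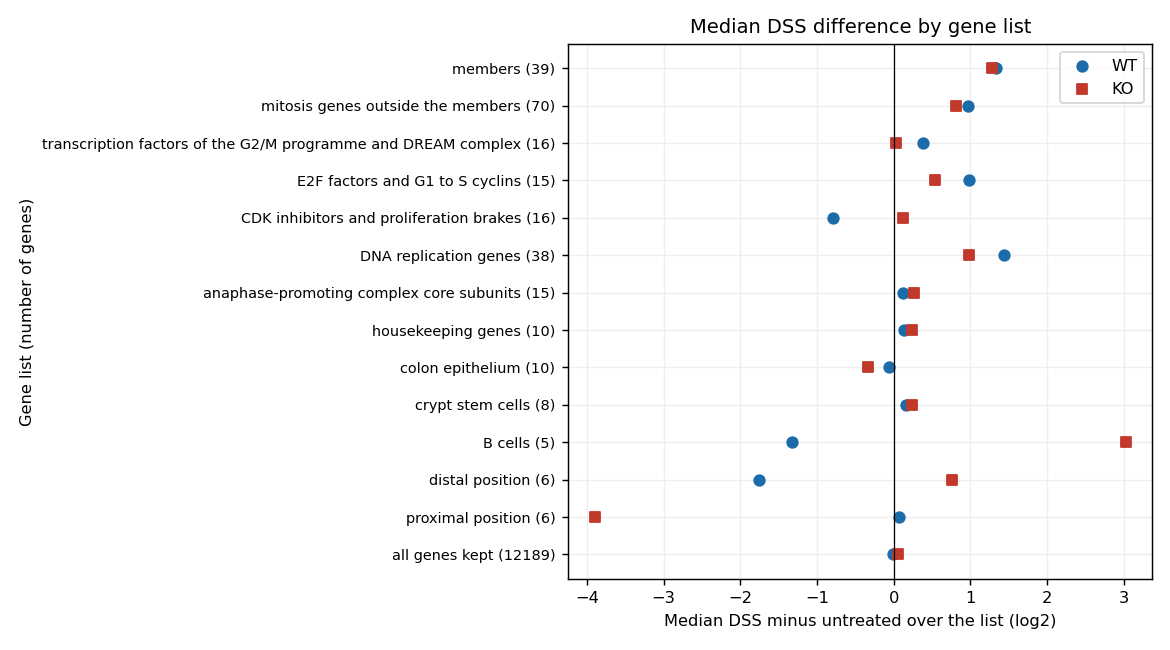
Median DSS minus untreated (x axis, log2) over each gene list (y axis, with the number of genes measured) in WT (circles) and KO (squares), 1 array per group with no error. The members sit at 1.34 and 1.28, while the B cell and position markers lie on opposite sides of 0 in the genotypes or far from 0 in KO.

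Markers of cell types that could hold dividing cells are given beside these values. Of 10 colon epithelial markers, 0 were 2-fold apart with DSS in WT and 2 were lower in KO (Muc2 and Car1), and their summed linear level was 24279, 24118, 33308 and 21016 on the 4 arrays. Of 8 crypt stem cell markers, 0 were 2-fold apart in WT, and in KO 1 was higher (Myc) and 3 were lower (Lgr5, Ascl2 and Axin2). Lgr5, the receptor that marks crypt stem cells, read 4.43, 3.49, 4.38 and 2.99, lower with DSS where the mitosis genes were higher. Olfm4 was between 0.85 and 1.32 on all arrays, and the summed level of the 8 was 431, 572, 557 and 672, in which Cd44 (7.17, 7.97, 8.09 and 8.50 on the log2 scale) and Myc were higher with DSS in both genotypes.

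Summed levels of lymphocyte and stromal markers did not follow the mitosis genes across the 4 arrays. Of 5 B cell markers, 4 were 2-fold lower with DSS in WT and 4 were 2-fold higher in KO, with medians of -1.33 and 3.03 and summed levels of 245, 87, 66 and 437. The mitosis genes were higher by nearly equal medians in both. Summed levels of 5 germinal centre markers were 125, 83, 85 and 121, those of 6 T and NK cell markers 112, 90, 170 and 108, and those of 6 macrophage markers 1091, 994, 1081 and 1397. The sums were 2285, 1742, 1863 and 3619 for 6 fibroblast markers, 96, 91, 82 and 133 for 5 endothelial markers, and 8227, 5470, 4186 and 5908 for 6 smooth muscle markers. Only the neutrophil sum of 5 markers among these, at 30, 118, 34 and 694, was higher with DSS in both genotypes, through S100a8 and S100a9. Single markers were more mixed than the sums. Higher with DSS in both genotypes were 2 of 6 fibroblast markers (Pdgfra and Col1a1) and 2 of 5 endothelial markers (Kdr and Tek). So were 2 of 6 macrophage markers (Cd14 and Cd68). In WT, 4 fibroblast, 3 endothelial and 4 macrophage markers were lower with DSS. Which cells carried the mitosis transcripts was not tested.

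Position markers differed along both DSS comparisons. The summed level of 6 distal genes was 1264, 279, 53 and 522, and that of 6 proximal genes 146, 304, 2078 and 53. The distal sum was thus lower with DSS in WT and higher in KO, and the proximal sum the reverse. In WT the proximal genes went both ways, 4 higher and 2 lower, with a median of 0.07. The mitosis genes were higher in both genotypes, and the part of position in their values was not tested.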

How the data were processed

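Per the labels' protocols, RNA of distal colon from 4 mice was prepared with Trizol and hybridised to Affymetrix arrays as biotinylated cRNA. The deposited values of 45101 probe sets lay between 0.16 and 13.23 and were taken as log2, judged from their range. The summarization and normalization the authors applied are not given in the sources used here, and column medians were 3.42 to 3.46, so columns were used as deposited. Detection calls and scanner files were left aside.

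Gene names came from GEO's platform annotation, with symbols updated by gene number through RefSeq (GRCm38.p6): 34945 had 1 symbol, 932 several, 9160 none and 64 were controls. A gene was read from its probe set with the highest mean among those above the array median on at least 1 array. Comparisons of pairs of arrays were log2 differences with a 2-fold threshold and no test. Over the 4 arrays limma 3.58.1 (R 4.3.3, lmFit, eBayes with an intensity trend, two-sided, Benjamini-Hochberg over 12189 genes, threshold 0.05) was fitted with both factors, and the code was tested on simulated data. The labels name 1 mouse per group, so p-values rest on the difference between genotypes or treatments and on error borrowed from all genes. The members, roles, lists and tests were chosen with earlier results of these data known. All members may be named. Genes of other lists were named for the highest and lowest mean DSS differences, or where a count was 5 or fewer. Others were named after their values were seen, as Foxm1, Rbl2, Cdkn1a, Ccnd1, Trp53inp1, Lgr5, Cd44, Olfm4, Epcam, Krt20, Hoxd13, Spc24 and the other probe sets. Promoter windows printed were the 4 highest and 2 lowest by mean DSS difference with a TTTGAA match. Alternatives were quantile normalization, median centring, filters, probe set rules, the limma design, a 1.5-fold threshold, another baseline and leaving out each array. Python 3.11.15 with pandas 2.3.3 was used.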

Additional observations from a re-analysis of the deposited data

Results flagged for a closer look

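For 21 of the 39 mitosis genes, KO and WT differed in opposite directions without and with DSS. This share was no higher than that of all genes kept, 58.7%. The change of direction was not tested, since each value is 1 array against 1 array. Values are the DSS difference in KO minus that in WT on the log2 scale. In 16 genes KO was higher than WT without DSS and lower with it: Bub1b (-1.02), Aurkb (-0.69), Ccna2 (-0.66), Cdkn3 (-0.53), Top2a (-0.52), Aurka (-0.46), Cenpf (-0.46), Kif11 (-0.44), Pbk (-0.44), Birc5 (-0.43), Ube2c (-0.42), Plk1 (-0.37), Cdca8 (-0.30), Cdk1 (-0.25), Ccnb2 (-0.21) and Racgap1 (-0.20). In 5 genes the order was the other way: Ect2 (0.82), Anln (0.36), Kif20a (0.35), Cdc20 (0.33) and Nusap1 (0.30). Of 12 other kept probe sets of 9 of these genes, 7 also had opposite signs and 5 did not. Those 5 were lower in KO in both treatments and belong to Aurkb (-0.33 without and -0.44 with DSS), Top2a (-0.06 and -0.39), Kif11 (-0.08 and -0.37), Racgap1 (-0.08 and -0.17) and Cdca8 (-0.12 and -0.07). For Cdc20, leaving out probe sets ending in _x_at or _s_at gave KO minus WT differences of 0.16 without and -0.06 with DSS, the reverse of its order here.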

How the results depend on the processing

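No DSS difference of a member changed sign under the other scalings, with averaged probe sets or without those ending in _x_at or _s_at. Single other kept probe sets of Tpx2, Kif2c and Cenpf did have the opposite sign in KO. Counts of members at least 2-fold higher with DSS were 25 to 38 in WT and 21 to 36 in KO over the alternatives, lowest when probe sets of a gene were averaged and highest at 1.5-fold, against 33 and 29. Under limma without a covariate, leaving out each array in turn gave 30 (without WT DSS) to 37 members at an unadjusted p under 0.05 for DSS, while all genes ranged from 901 to 2693, and 0 to 0 members for genotype; other settings gave 32 to 38 and 0. Averaging covered all probe sets of a gene, but for limma those that passed the filter. The lone array of a group is then assumed to vary like the others. The median KO minus WT difference without DSS, -0.05, was 0.045 after quantile normalization and 0.010 with averaged probe sets, and 3 members in place of 0 were apart at 1.5-fold. The median DSS difference in KO of the Cdk inhibitors and brakes, 0.125, was -0.435 against the untreated WT array, a baseline chosen for this list after seeing the data. Counts in both genotypes and by sign were rerun under alternatives chosen after seeing the data, and 39 of 39, or 37 of 37, stayed higher with DSS in both. No paired analysis was possible because each group has 1 array and the labels give no replicate numbers. The precision of these values is set by having 1 array per group.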
